A study of Mus musculus with 20 samples.

Results

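The comparison described here is that of Suz12 chromatin binding in mouse embryonic stem cells after 9 h in triptolide with binding at 0 h, and it uses 4 of the 20 samples of the series, 2 libraries at each time. The cells were wild-type E14 embryonic stem cells grown on gelatin in serum medium with leukemia inhibitory factor, and triptolide was given at 10 µM. The samples were picked by their labels. Suz12 bound to DNA was measured by chromatin immunoprecipitation and sequencing (ChIP-seq), in which cross-linked chromatin is pulled down with an antibody and its DNA is read. The labels name no vehicle for the 0 h cells. The series design calls the replicates biological, but whether cultures were separate is not stated, so p-values measure only the spread between these libraries. The series' H3K27me3 and RNA polymerase II samples were not analysed here, so the extent of the block of transcription was not measured.

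Polycomb repressive complex 2 (PRC2), of which Suz12 is an essential part, methylates lysine 27 of histone H3 and helps to keep developmental genes silent. In embryonic stem cells PRC2 is found mainly at promoters rich in CG dinucleotides (CpG islands), above all those of silent lineage regulators such as the Hox genes. Triptolide binds a helicase subunit of the general transcription factor TFIIH and blocks initiation by RNA polymerase II. The question is where Suz12 lies once transcription has been stopped.

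Promoter sequences of 6 genes show the kinds of site compared. Klf2, Sall1 and Fgf4 had a Suz12 peak in both 9 h lists and in no 0 h list. Hoxa5 and Gata2 had a peak in all 4 lists with fewer counts at 9 h, and Plk2 had a peak in the 0 h lists alone. These 6 were chosen after their values were seen. Each line gives the 250 bases before the annotated start, from RefSeq on the GRCm38.p6 build, 5′ to 3′ on the strand of the gene, with CG dinucleotides in capitals. They lie at chr8:72318812-72319061 (plus strand), chr8:89043513-89043762 (minus), chr7:144861136-144861385 (plus), chr6:52204588-52204837 (minus), chr6:88193641-88193890 (plus) and chr13:110394794-110395043 (plus).
Klf2: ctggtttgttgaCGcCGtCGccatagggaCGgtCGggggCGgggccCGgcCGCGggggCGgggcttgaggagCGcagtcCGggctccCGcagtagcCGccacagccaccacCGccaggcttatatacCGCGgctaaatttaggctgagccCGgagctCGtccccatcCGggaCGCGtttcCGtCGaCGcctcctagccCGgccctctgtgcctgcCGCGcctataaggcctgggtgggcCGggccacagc
Sall1: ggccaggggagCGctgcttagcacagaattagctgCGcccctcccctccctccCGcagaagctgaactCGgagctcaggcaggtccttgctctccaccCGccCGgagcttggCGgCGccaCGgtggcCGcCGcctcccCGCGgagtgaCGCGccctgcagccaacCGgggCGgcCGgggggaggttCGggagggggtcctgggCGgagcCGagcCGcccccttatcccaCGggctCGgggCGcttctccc
Fgf4: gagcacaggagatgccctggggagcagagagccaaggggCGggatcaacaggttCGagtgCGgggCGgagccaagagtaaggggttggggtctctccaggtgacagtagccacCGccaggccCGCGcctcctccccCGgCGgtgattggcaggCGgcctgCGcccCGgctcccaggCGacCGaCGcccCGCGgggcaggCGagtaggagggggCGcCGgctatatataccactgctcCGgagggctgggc
Hoxa5: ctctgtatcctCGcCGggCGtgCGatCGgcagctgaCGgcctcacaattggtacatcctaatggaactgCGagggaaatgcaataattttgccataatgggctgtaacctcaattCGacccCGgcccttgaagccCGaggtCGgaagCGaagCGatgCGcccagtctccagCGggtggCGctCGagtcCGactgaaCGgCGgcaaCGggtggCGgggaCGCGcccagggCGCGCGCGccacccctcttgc
Gata2: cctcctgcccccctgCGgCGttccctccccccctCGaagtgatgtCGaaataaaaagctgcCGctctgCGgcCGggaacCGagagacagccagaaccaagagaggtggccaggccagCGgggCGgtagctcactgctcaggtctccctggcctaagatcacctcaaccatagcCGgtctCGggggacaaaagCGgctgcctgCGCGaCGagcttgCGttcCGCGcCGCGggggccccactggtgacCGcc
Plk2: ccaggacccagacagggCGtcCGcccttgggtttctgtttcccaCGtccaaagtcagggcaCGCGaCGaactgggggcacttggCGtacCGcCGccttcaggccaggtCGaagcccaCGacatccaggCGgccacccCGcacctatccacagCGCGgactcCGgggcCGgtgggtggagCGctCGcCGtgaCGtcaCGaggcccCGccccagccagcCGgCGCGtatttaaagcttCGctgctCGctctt
The number of CG dinucleotides was 29 for Klf2, 25 for Sall1, 21 for Fgf4, 28 for Hoxa5, 22 for Gata2 and 28 for Plk2. Each of the 6 lay inside its Suz12 region, and the counts for the gained, kept and lost examples overlapped.

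Suz12 peaks were more numerous in the 9 h lists. The 0 h lists held 5116 and 6728 peaks and the 9 h lists 7153 and 10005, for replicates 1 and 2 in that order, as everywhere below. The ratio of the means was 1.45, and the groups did not overlap. The DNA under peaks came to 11.5 and 12.6 Mb at 0 h and to 14.4 and 16.0 Mb at 9 h, a ratio of 1.26. Protein-coding genes with a peak within 1 kb of either annotated end numbered 3374 and 4203 at 0 h and 4960 and 6422 at 9 h. For each of these measures the two-sided exact permutation p was 0.333 (n = 2 against 2), the smallest that the design allows. Median peak width was 1773 and 1458 bp at 0 h and 1634 and 1266 bp at 9 h, and here the groups overlapped (exact permutation p = 0.667, n = 2 against 2).

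Merging peaks that overlapped by at least 1 bp gave 9809 regions. Those with a peak in every list are called kept, and there were 4618 (47.1%). A peak in both 9 h lists and in neither 0 h list was found in 1364 regions (13.9%), called gained, and the reverse was found in 73, called lost. The longest list, that of 9 h replicate 2, held 1995 regions (20.3%) found in no other. The number of gained regions was 3424 without the list of 9 h replicate 1 and 2256 without that of 0 h replicate 2. The number lost was 332 without 0 h replicate 1 and 300 without 9 h replicate 2. With each list cut to its 5116 peaks of highest rank by count, 725 regions were gained and 672 lost. Equal length itself brings these numbers close together, so they give no measure of an excess.

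**Figure D1:**
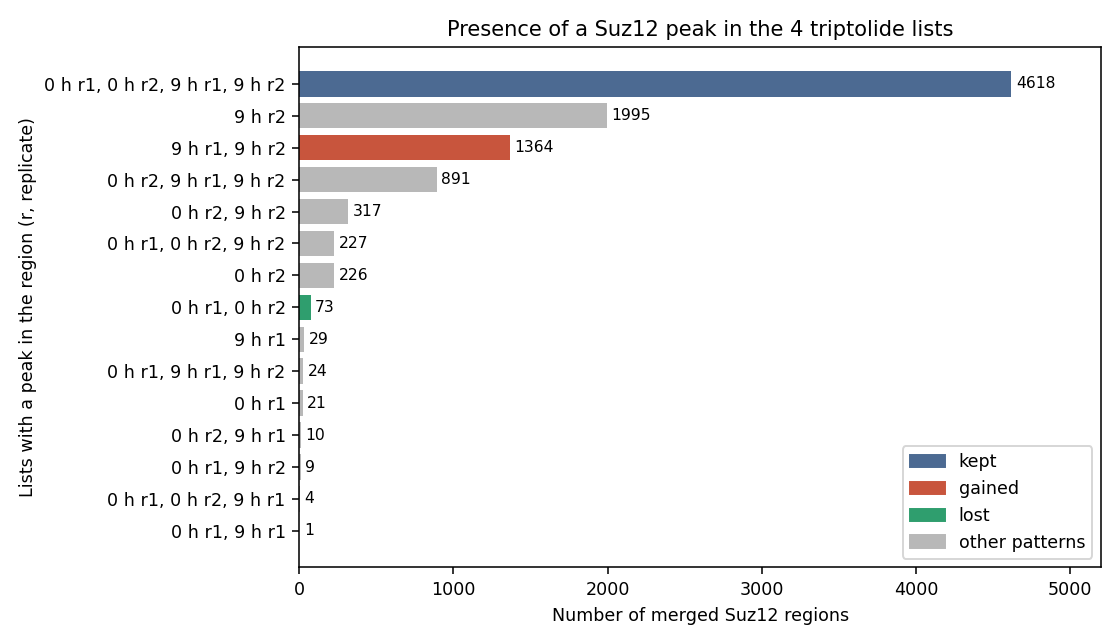
Number of merged Suz12 regions (horizontal axis) for each combination of lists with a peak (vertical axis; r, replicate). The bar of all 4 lists reaches 4618, that of both 9 h lists alone 1364 and that of both 0 h lists alone 73.

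By gene, 3218 protein-coding genes had a peak at an end in all 4 lists, 1038 gained one and 28 lost one, of 21631. The gained genes fell on 875 distinct regions, since neighbours can share a region. Of the 842 gained genes with a start site in the RefSeq promoter table, 706 (83.8%) had their region within 1 kb of it, and of kept genes 2080 of 2377 (87.5%). The number of gained genes was 2296 without 9 h replicate 1 and 1690 without 0 h replicate 2. The number lost was 85 without 0 h replicate 1, 118 without 9 h replicate 2, and 642 genes were gained and 331 lost with lists of equal length.

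Read counts over the regions moved in both directions. The 4 libraries held 3569518 and 2974673 reads over the regions at 0 h and 4142442 and 4260812 at 9 h. Gained regions took 3.37% and 2.94% of these reads at 0 h and 7.38% and 6.90% at 9 h, a ratio of the means of 2.26. These regions were picked by peaks at 9 h alone in the same libraries, so a higher share at 9 h was favoured by the choice and is a description. Kept regions took 87.1% and 88.0% at 0 h and 80.2% and 80.3% at 9 h. Lane cannot be told apart from treatment, since the file headers give lane 1 for both 0 h libraries and lane 3 for both 9 h libraries. The headers give the same index sequence for all 4 libraries and name no run. Libraries that share an index cannot be separated within the same lane of a run. By these headers, the replicates of each time were therefore not read together in the same lane of the same run. Which runs they came from is not known.

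Values after ± are standard errors of the log2 fold change. Each region was tested in edgeR by quasi-likelihood with trimmed mean of M values (TMM) scaling, and "rose" and "fell" below mean a Benjamini-Hochberg adjusted p under 0.05 over all regions. CPM is the number of reads per 1e6 reads over the regions after this scaling, and changes are relative to the other regions because no library totals were used. Counts rose in 3068 regions (31.3%) and fell in 2947 (30%). Both 9 h libraries were above both 0 h libraries in 4109 regions (41.9%) and below both in 3778 (38.5%). How calls split by direction depends on the scaling: 51.0% of calls were higher with TMM, 66.0% when scaled to the sum of counts and 77.6% when scaled to the summed counts of kept regions. Regions that rose and fell numbered 3915 (39.9%) and 2013 (20.5%) in the former case and 4584 (46.7%) and 1320 (13.5%) in the latter. The median log2 fold change of all regions was 0.05, 0.23 and 0.35 under these scalings, and values below are given under TMM, with the scaling to kept regions beside group directions. No region called under TMM was called with the other sign under any alternative run on the same regions.

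Kept regions had lower counts at 9 h under TMM, with 2386 of 4618 (51.7%) that fell, 564 (12.2%) that rose and a median log2 fold change of −0.33. Their median was −0.02 when scaled to kept regions, which sets it close to 0 by construction, and 1084 (23.5%) then fell and 1204 (26.1%) rose. Gained regions had a median log2 fold change of 0.91 under TMM and 1.21 scaled to kept regions, with 1149 of 1364 (84.2%) that rose under TMM and 215 that did not pass. Lost regions had a median of −1.0 under TMM, and 72 of 73 (98.6%) fell. Scaled to kept regions their median was −0.70, and 56 (76.7%) fell. Gained and lost regions were chosen from the same libraries as the counts, so these shares describe them and test nothing. The distance between the medians of gained and kept regions, which hardly moves with scaling, was 1.24 and ranged from 1.18 to 1.30 over the alternatives fitted on the same regions.

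**Figure D2:**
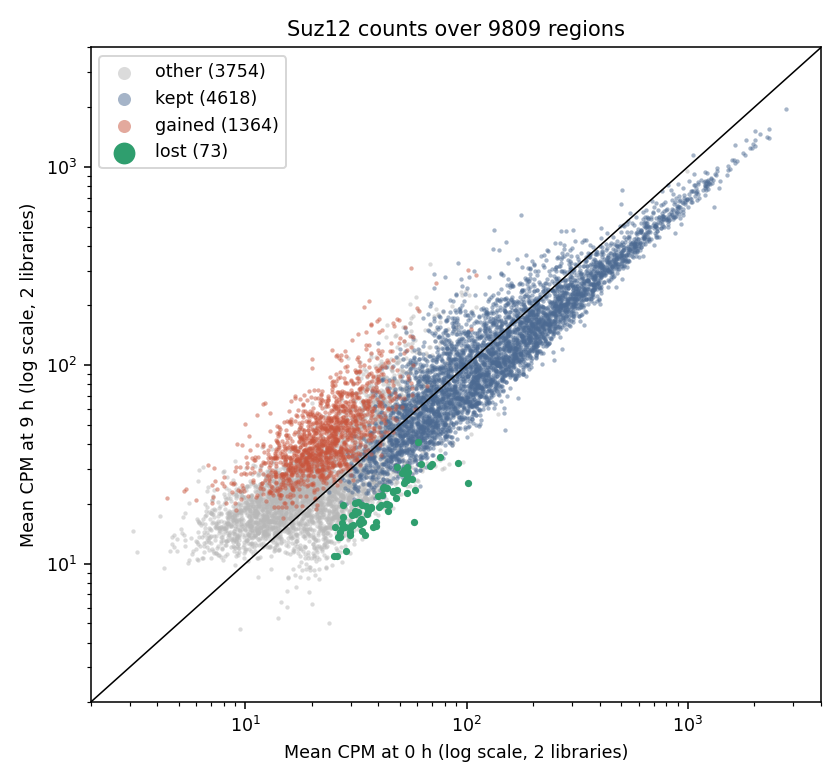
Mean CPM at 9 h (vertical, log scale) against 0 h (horizontal, log scale) for each of the 9809 regions, coloured by presence of peaks, with the line of equality. Gained regions lie mostly above the line, lost regions below it, and the kept regions of highest counts mostly below it.

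Gained sites stayed well below kept sites in density. In each library the median density of kept regions was 58.8 and 59.2 CPM per kb at 0 h and 51.6 and 51.0 at 9 h. Gained regions had 17.7 and 16.6 CPM per kb at 0 h and 32.7 and 30.7 at 9 h. Of the 1364 gained regions, 51 (3.74%) and 39 (2.86%) exceeded the kept median of their library at 9 h, and none did at 0 h. Gained regions were picked for having no 0 h peak, and kept regions for a peak in every list of the same libraries. A lower density of gained regions, above all at 0 h, was therefore favoured by the choice and is a description.

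The largest increases among the named genes were at Sall1, Slc38a1 and Irf2bpl. Sall1, a zinc finger transcription factor of kidney and limb development that embryonic stem cells also express, had 36.1 and 36.6 CPM at 0 h and 242 and 178 CPM at 9 h over chr8:89043135-89047624, which covers its start. Its log2 fold change was 2.53 ± 0.16 (edgeR adjusted p = 9.37e-07), and the 9 h libraries differed from each other more than the 0 h libraries did, without overlap between groups. Slc38a1, an amino acid transporter, went from 34.4 and 34.8 to 209.8 and 184 CPM with a log2 fold change of 2.51 ± 0.13. Irf2bpl, which encodes a nuclear protein that binds interferon regulatory factor 2, had 55.6 and 56.8 CPM at 0 h and 309.7 and 307 CPM at 9 h over chr12:86881627-86885069, and its replicates were close at both times (2.46 ± 0.10 on the log2 scale, edgeR adjusted p = 1.38e-07). All 3 regions span or adjoin an annotated end of their gene and had no 0 h peak.

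Klf2, a Krüppel-like factor of naive pluripotency, had 23.6 and 25.6 CPM at 0 h and 125 and 113 CPM at 9 h over chr8:72318700-72321209 and a log2 fold change of 2.28 ± 0.14. Fgf4, the growth factor that embryonic stem cells secrete and that drives ERK signalling in them, had 23.9 and 27.8 CPM at 0 h and 118 and 107 CPM at 9 h and a log2 fold change of 2.13 ± 0.15. Nfib, a nuclear factor I transcription factor, went from 31.2 and 43.2 to 160.3 and 162 CPM (2.13 ± 0.15). In these 3 genes every 9 h library was above every 0 h library. A region shared by the overlapping genes Mesd and Tlnrd1 had 68.2 and 68.9 CPM at 0 h and 316 and 328 CPM at 9 h (2.23 ± 0.10), and one shared by Ndufa13, a subunit of mitochondrial complex I, and Tssk6, a testis kinase, had 34.7 and 29.7 CPM at 0 h and 138 and 151 CPM at 9 h (2.16 ± 0.14). A shared region cannot be assigned to any 1 of its genes, and sharing is stated below where a named gene is affected.

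**Figure D3:**
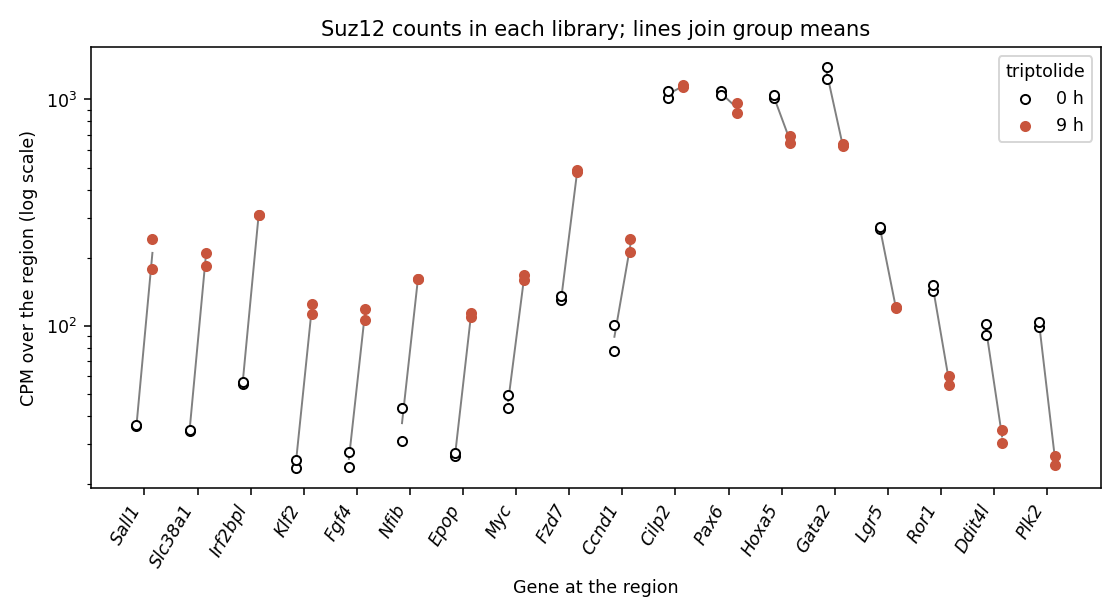
CPM over the region of each gene (vertical, log scale) in each library, with open points for 0 h, filled points for 9 h and lines between group means. From Sall1 to Ccnd1 both 9 h points lie above both 0 h points, and from Hoxa5 to Plk2 both lie below.

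The pluripotency list has 40 genes, of which 4 kept a peak, 11 gained one and 19 had none in any list. The other 6 had peaks in other combinations of lists. Of the 21 with a region, 17 rose and 4 did not pass, with a median log2 fold change of 1.16 (1.46 scaled to kept regions), beside 2251 of 6348 (35.5%) regions at gene ends that rose. Since 16 of these genes entered through 9 h peaks alone, the count describes them and is no test. Klf4 went from 47.8 and 50.9 to 175 and 163 CPM (1.78 ± 0.12) and Myc from 49.5 and 43.6 to 168 and 159.9 CPM (1.81 ± 0.12). Among members outside the naming rule and chosen after their values were seen, Mycn went from 36.7 and 23.8 to 148 and 119 CPM (2.12 ± 0.18) and Sox2 from 12.5 and 13.6 to 28.9 and 29.2 CPM (1.16 ± 0.20), so that the log2 fold change at Sox2, a core factor of the network, was below those at Klf2 and Mycn. The core factors Pou5f1 and Nanog and the orphan receptor Esrrb had no peak at either end in any of the 4 lists. Of the 4 members with a kept region 2 rose, namely Foxd3, a forkhead factor, from 194 and 267 to 380.1 and 384 CPM (0.73 ± 0.13), and Gbx2, a homeobox factor whose region is shared with another annotated gene, from 288 and 277 to 514 and 437 CPM (0.75 ± 0.10). These were not selected by a new peak.

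Hox genes behaved in the opposite way. All 39 kept a peak, on 27 distinct regions, and all 27 fell, beside 51.7% of all kept regions. Their median log2 fold change was −0.52, and −0.22 with 18 that fell when scaled to kept regions. The region of Hoxa5 and Hoxa6, chr6:52199695-52210302, had 1013 and 1049.7 CPM at 0 h and 688 and 642 CPM at 9 h (−0.63 ± 0.09, edgeR adjusted p = 0.000147). Hoxa13, at the 5′ end of its cluster, went from 545 and 655 to 332 and 374 CPM (−0.76 ± 0.11), and Hoxb13 from 336 and 313 to 210.2 and 197 CPM (−0.67 ± 0.10).

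The kept regions of this and the following lists stand beside 51.7% of all kept regions that fell, 12.2% that rose and a median of −0.33, and beside 23.5%, 26.1% and −0.02 scaled to kept regions. Regulators of the neural lineage, all 43 with a kept peak, had a median of −0.52 (−0.22 scaled to kept regions). Of these 38 fell under TMM, and 27 fell and 2 rose scaled to kept regions. Lmx1b, a LIM homeodomain factor of midbrain dopamine neurons, went from 2265 and 2402 to 1439.8 and 1369 CPM (−0.73 ± 0.09). Lhx1 went from 1509.7 and 1501 to 945 and 871 CPM (−0.73 ± 0.09), and Lmx1a from 583 and 586 to 359 and 355 CPM (−0.71 ± 0.09). Pax6, the eye and forebrain regulator, had 1091 and 1048 CPM at 0 h and 967 and 875 CPM at 9 h, with a log2 fold change of −0.22 ± 0.09 and an edgeR adjusted p of 0.0615. It passed in DESeq2 (adjusted p = 0.0473), without 0 h replicate 1 (0.0349) and without 0 h replicate 2 (0.00857), and had the opposite sign (0.09) scaled to kept regions.

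Mesoderm and heart regulators had 26 of 33 genes with a kept region, of which 23 fell, with a median of −0.56 (−0.25 scaled to kept regions). Gata2, a zinc finger factor of blood formation and trophectoderm, had 1232 and 1386 CPM at 0 h and 619.9 and 633 CPM at 9 h over chr6:88191669-88201899 (−1.06 ± 0.10, edgeR adjusted p = 8.03e-06). The 0 h libraries differed from each other more than the 9 h libraries did, and the groups did not overlap. Its relative Gata3 went from 272 and 255 to 144 and 135 CPM (−0.92 ± 0.10), and Tbx5, a T-box factor of heart and forelimb, from 167 and 155 to 91.6 and 86.1 CPM (−0.86 ± 0.11). Endoderm regulators had 14 kept regions, of which 10 fell and Hhex alone rose, with a median of −0.49 (−0.18 scaled to kept regions). Pdx1, the pancreas regulator, went from 542 and 516 to 329 and 295 CPM (−0.76 ± 0.10) and Sox17 from 521 and 631 to 368 and 377 CPM (−0.63 ± 0.10). Hhex, a homeobox factor of liver and thyroid, went from 131 and 151 to 199.96 and 180.1 CPM (0.43 ± 0.11), and its adjusted p was 0.0546 without 9 h replicate 1.

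Of 14 kept regions of trophectoderm regulators 9 fell and 1 rose, with a median of −0.42 (−0.11 scaled to kept regions). The gene that rose was Tead4, the trophectoderm specifier, from 71.9 and 87.5 to 146 and 148 CPM (0.89 ± 0.12). Bmp4, which is in this list and in that of TGF-beta signals, had no 0 h peak and went from 45.4 and 48.3 to 161 and 154 CPM (1.75 ± 0.12). The 5 lists of Hox and lineage regulators had negative medians over kept regions under both scalings.

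**Figure D4:**
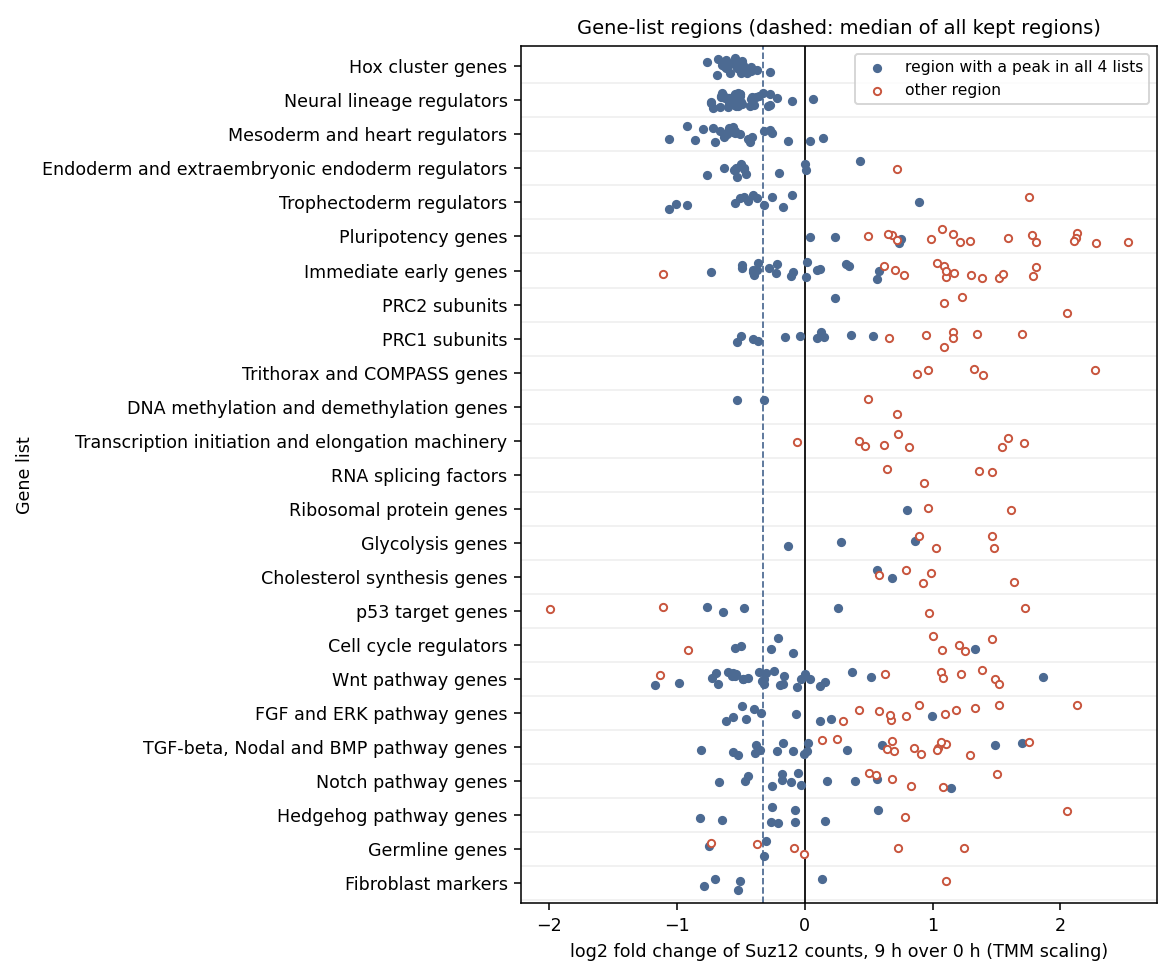
Log2 fold change of Suz12 counts at 9 h over 0 h (horizontal) for the regions of each gene list (vertical; points spread for visibility). Filled points have a peak in all 4 lists and open points other patterns, and the dashed line marks −0.33, the median of all kept regions. The filled points of the Hox and neural lists lie mostly to its left.

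Falls were largest at a few genes. Plk2, a polo-like kinase and p53 target that lost its peak, had 99.04 and 104 CPM at 0 h and 24.4 and 26.6 CPM at 9 h over chr13:110394259-110396039, with a log2 fold change of −1.99 ± 0.14 (edgeR adjusted p = 1.69e-06). Ddit4l, an inhibitor of mTOR signalling, went from 90.9 and 101 to 30.3 and 34.7 CPM (−1.56 ± 0.14), and Ror1, a receptor of Wnt5a, from 143 and 151 to 59.9 and 54.7 CPM (−1.36 ± 0.12). In Anks1b (−1.39 ± 0.15), Greb1l (−1.28 ± 0.12), Pappa (−1.22 ± 0.11) and Fermt1 (−1.22 ± 0.14) the 9 h libraries also lay below both 0 h libraries. Zfp365, chosen after its values were seen, lost its peak as well, from 56.8 and 58.6 to 15.03 and 17.6 CPM (−1.82 ± 0.18).

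The 28 lost genes were of 2 kinds. For 18 the region itself was lost, and for 10 the region was kept but its peaks no longer came within 1 kb of the gene end at 9 h. Rbfox3, the neuronal splicing factor known as NeuN, was of the second kind, from 541 and 559.7 to 384 and 375 CPM (−0.54 ± 0.09), as were Crhr1, the receptor of corticotropin-releasing hormone, from 443 and 465 to 321 and 301 CPM (−0.55 ± 0.09), and Hpse2, a heparanase relative, from 312 and 291 to 188 and 155 CPM (−0.81 ± 0.11). These falls were smaller than that at Plk2. With start sites in place of both ends, 16 genes were lost.

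Some kept regions went against the class. Zfp36l2, which encodes a protein that destabilises messenger RNA, was chosen after its values were seen and had the largest rise among kept regions at genes, from 64.96 and 77.3 to 276 and 302 CPM (2.03 ± 0.11). Fzd7, a Frizzled receptor of Wnt ligands, had 130.2 and 136 CPM at 0 h and 488 and 478 CPM at 9 h over chr1:59481333-59485441 (1.86 ± 0.10, edgeR adjusted p = 3.54e-07). Ccnd1, cyclin D1, went from 101 and 77.6 to 243 and 211 CPM (1.33 ± 0.13), Inhbb, a subunit of activins, from 125 and 175 to 411 and 428 CPM (1.49 ± 0.13) and Ski, a repressor of SMAD signals, from 38.7 and 41.02 to 128 and 131 CPM (1.70 ± 0.13). In all of these a peak was called before treatment, so the rise does not depend on the choice of gained sites.

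Signalling genes moved in both directions within each pathway. Of 32 kept regions of Wnt pathway genes 19 fell and 3 rose under TMM, and 11 fell and 9 rose scaled to kept regions. Their median was −0.33 (−0.02 scaled to kept regions), the same as all kept regions under either scaling to 2 decimals. Over all 40 regions the median was −0.27 under TMM and 0.03 scaled to kept regions, so its sign depends on scaling. Lgr5, the R-spondin receptor, had 269 and 272 CPM at 0 h and 121 and 120.1 CPM at 9 h (−1.17 ± 0.09), and the antagonist Dkk1 went from 115 and 123 to 59.2 and 60.8 CPM (−0.98 ± 0.12) and the ligand Wnt8a from 92.05 and 80.2 to 35.5 and 43.5 CPM (−1.13 ± 0.15). Of genes without a 0 h peak, the receptor Fzd5 went from 33.2 and 32.96 to 86.5 and 99.5 CPM (1.49 ± 0.14) and the effector Tcf7l1, a repressor of pluripotency genes, from 23.9 and 21.98 to 66.7 and 65 CPM (1.52 ± 0.16).

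In the FGF and ERK list 6 of 10 kept regions fell and 1 rose, with a median of −0.37, close to the 51.7% and −0.33 of all kept regions. Scaled to kept regions, 3 fell and 4 rose, with a median of −0.06. The ligands Fgf9 (from 857 and 985 to 607 and 595 CPM, −0.62 ± 0.10) and Fgf5 (from 318 and 316 to 226 and 204 CPM, −0.56 ± 0.10) and the receptor Fgfr3 (from 661 and 752 to 509 and 496 CPM, −0.49 ± 0.10) fell. Dusp6, the phosphatase that restrains ERK, had no 0 h peak and went from 23.6 and 16.5 to 58.5 and 57.97 CPM (1.52 ± 0.19), and a region shared by Spred3, another inhibitor, with Ggn and Psmd8 went from 94.1 and 93.03 to 190.4 and 183 CPM (1.00 ± 0.10). Fgf4 and Fgf5, both FGF ligands, moved in opposite directions.

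TGF-beta, Nodal and BMP genes had 6 of 16 kept regions that fell and 4 that rose under TMM, with a median of −0.13. Scaled to kept regions, 3 fell and 7 rose, with a median of 0.18. The receptor Bmpr1b went from 138 and 134 to 75.6 and 79.9 CPM (−0.81 ± 0.11), and the ligands Bmp2 and Bmp7 fell by similar amounts, from 473 and 575 to 349 and 361 CPM (−0.56 ± 0.11) and from 488 and 541 to 363 and 354 CPM (−0.52 ± 0.09). Notch genes had 4 of 13 that fell and 3 that rose, with a median of −0.11 (0.20 scaled to kept regions, where 1 fell and 5 rose). Jag1, a ligand, went from 83.9 and 84.2 to 179 and 193 CPM (1.15 ± 0.11), and a region shared by Gps1 and the fringe enzyme gene Rfng, with no 0 h peak, from 32.6 and 32.96 to 93.1 and 92.5 CPM (1.5 ± 0.14), while the target Heyl went from 90.9 and 83.5 to 53.98 and 55.6 CPM (−0.67 ± 0.13). Hes5 (region shared with Pank4, −0.47 ± 0.10) and Dll4 (−0.44 ± 0.09) fell under TMM, but their adjusted p was 0.112 and 0.084 scaled to kept regions.

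Hedgehog genes had 4 of 9 kept regions that fell and 1 that rose, with a median of −0.21. Scaled to kept regions, 2 fell and 2 rose, with a median of 0.10. The ligand Shh went from 1329 and 1442 to 778 and 794 CPM (−0.82 ± 0.09) and Ihh from 812 and 951 to 576 and 553 CPM (−0.64 ± 0.10). The ligand Dhh (−0.25 ± 0.09, edgeR adjusted p = 0.0306) had a log2 fold change of 0.06 (adjusted p = 0.471) scaled to kept regions. Gli2, an effector with no 0 h peak, went from 30 and 26.7 to 128 and 108 CPM (2.05 ± 0.15), and Gli3, with a kept peak, from 84.2 and 85.7 to 123 and 131 CPM (0.58 ± 0.11).

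Genes of chromatin regulators were mixed. Of 14 PRC2 genes 4 had a region: Epop, a PRC2 cofactor of embryonic stem cells, went from 26.5 and 27.5 to 114 and 109.8 CPM (2.05 ± 0.14) and Aebp2, an accessory subunit, from 22.1 and 34.4 to 62.4 and 68.3 CPM (1.23 ± 0.19), both without a 0 h peak. Ezh2, the catalytic subunit, went from 7.57 and 5.86 to 11.6 and 17.3 CPM (1.09 ± 0.30), and its adjusted p was 0.0879 without 9 h replicate 2 and 0.0554 without 0 h replicate 2. Only the list of 9 h replicate 2 had a peak at an end of Ezh2. Phf19 did not pass (0.24 ± 0.11), and no peak lay at an end of Suz12 itself or of Eed. Of 26 PRC1 genes 11 had a kept region, 4 of which fell and 2 rose, with a median of −0.03. Scaled to kept regions, 2 fell and 5 rose, with a median of 0.27. The region of Cbx8, a Polycomb protein, fell from 2726 and 2832 to 1980.04 and 1950.3 CPM (−0.50 ± 0.09), whereas Mga, with no 0 h peak, went from 29.7 and 23.8 to 80.4 and 94.9 CPM (1.70 ± 0.16).

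All 5 regions of the 20 Trithorax and COMPASS genes, which oppose Polycomb silencing, rose, beside 35.5% of all regions at gene ends. None of them was kept. Cxxc1, a CpG-binding subunit, went from 29.4 and 21.98 to 75.2 and 61.5 CPM (1.39 ± 0.18), Kdm6b, a demethylase of H3K27, from 38.4 and 36.6 to 69.01 and 69.4 CPM (0.88 ± 0.14), and the region shared by Rhof and Setd1b, a methylase of H3K4, from 5.24 and 7.69 to 26.2 and 35.4 CPM (2.27 ± 0.27). All 5 entered through 9 h peaks alone, so a higher count at 9 h was part of how they were found. Kmt2c, Setd1b and Men1 had a peak at an end in the list of 9 h replicate 2 alone. Of 19 genes of DNA methylation and demethylation 4 had a region, of which the dioxygenase gene Tet3 fell, from 296 and 309 to 206 and 212 CPM (−0.53 ± 0.09), and the methyltransferase gene Dnmt3b rose, from 45.1 and 47.6 to 85.2 and 67.9 CPM (0.72 ± 0.15).

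Immediate early genes, which respond within minutes to growth factors, had 21 kept regions, 9 of which fell and 2 rose under TMM. Scaled to kept regions, 2 fell and 8 rose. The median was −0.21 under TMM and 0.09 scaled to kept regions. A further 7 of the 40 gained a peak. Jund was among these, and the region it shares with Iqcn went from 30.9 and 39.6 to 118 and 124 CPM (1.79 ± 0.14). Arc, which was not among them and had a peak in 0 h replicate 2, went from 56.5 and 54.6 to 164 and 161 CPM (1.55 ± 0.11). Ccn1 went from 121 and 110.2 to 72.9 and 66.98 CPM (−0.73 ± 0.12). Btg2, also a p53 target, went from 26.2 and 25.3 to 12.98 and 10.98 CPM (−1.10 ± 0.21). Btg2 had a peak in 0 h replicate 2 alone, so a lower count at 9 h was favoured by how it was found.

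Among 24 p53 targets, 8 had a region, and 3 of 4 kept ones fell (median −0.56, and −0.25 scaled to kept regions). Phlda3 went from 105 and 119.8 to 71.3 and 72.7 CPM (−0.64 ± 0.12), while Plk3, a relative of Plk2 with no 0 h peak, went from 27.1 and 22.3 to 85.2 and 79.5 CPM (1.72 ± 0.16), the opposite of Plk2. Cell cycle genes had 6 kept regions, 3 of which fell and 1 rose, with a median of −0.24. Scaled to kept regions, 1 fell and 2 rose, with a median of 0.07. The inhibitor gene Cdkn2a went from 416 and 395 to 281 and 275 CPM (−0.54 ± 0.09), over a region 4659 bp from its nearest listed start. Cdkn1b, encoding p27, had no 0 h peak and went from 36.4 and 23.4 to 94.7 and 73.3 CPM (1.47 ± 0.20), and Cdk6 went from 94.96 and 104 to 254 and 220.04 CPM (1.26 ± 0.11).

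Of all 21631 genes, 6547 (30.3%) had a Suz12 region at an end. Of 67 ribosomal protein genes 3 had one, of 34 splicing factors 4, of 48 genes of the transcription machinery 9, of 24 glycolysis genes 7 and of 25 cholesterol synthesis genes 7, the last pair of lists being close to the share of all genes. All regions of the ribosomal, splicing and cholesterol lists rose, as did 5 of 9 of the transcription machinery and 5 of 7 of glycolysis, beside 35.5% of all regions at gene ends. Many entered through 9 h peaks alone: 2 of 3, 4 of 4, 7 of 7, 7 of 9 and 3 of 7 in that order. Sqle, squalene epoxidase, went from 17.5 and 14.7 to 51.7 and 48.97 CPM (1.64 ± 0.19), and Srebf2, the regulator of the pathway, from 88.6 and 77.6 to 137 and 130.2 CPM (0.68 ± 0.12). The region taken for Srebf2 lay 781 bp from the nearer end of the gene and 58891 bp from its nearest listed start. That region was kept, though only its 9 h peaks came within 1 kb of the gene end. Hexim1, an inhibitor of the elongation kinase P-TEFb, went from 15.1 and 16.5 to 57.2 and 46.3 CPM (1.71 ± 0.20), and Aff1, a scaffold of the super elongation complex, from 17.2 and 17.9 to 52.2 and 50.1 CPM (1.54 ± 0.18).

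Lists of olfactory receptor, germline and fibroblast genes, which mark other cell types, served as a contrast. Of 1106 olfactory receptor genes, which lack CpG islands, 3 had a region. The region shared by Olfr94 and Ubd fell (−0.27 ± 0.10, edgeR adjusted p = 0.0259) but had 0.03 (adjusted p = 0.793) scaled to kept regions, and its adjusted p was 0.0591 in DESeq2 and between 0.063 and 0.215 without 0 h replicate 1, 9 h replicate 1 or 9 h replicate 2. Of 17 germline genes 9 had a region, and 1 of 3 kept ones fell. Of fibroblast markers 4 of 5 kept regions fell (median −0.52, and −0.21 scaled to kept regions), with Tcf21 from 149 and 144 to 81.5 and 88.3 CPM (−0.79 ± 0.11) and Fbn1 from 360.03 and 375 to 210.4 and 242 CPM (−0.70 ± 0.10). Vim, the intermediate filament gene, went from 34.1 and 39.9 to 72.7 and 86.1 CPM (1.11 ± 0.15). Suz12 binding is not expression, so these markers do not test the identity of the cells.

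Some sites with high counts did not pass the test. The region shared by Cilp2 and Yjefn3 had 1013 and 1091 CPM at 0 h and 1134 and 1163 CPM at 9 h (0.13 ± 0.09, edgeR adjusted p = 0.243), but its log2 fold change was 0.31 scaled to the sum of counts and 0.43 scaled to kept regions, and both passed. It also passed without 0 h replicate 2 (adjusted p = 0.0344). Sfi1, a centrosome gene, had 1115 and 868 CPM at 0 h and 1025 and 872 CPM at 9 h, and its replicates overlapped between groups (−0.07 ± 0.12, edgeR adjusted p = 0.661). Despite these counts the Sfi1 region was neither kept, gained nor lost, so not every list had a peak there. Without 0 h replicate 2 it passed (adjusted p = 0.0233), and its sign was positive under both other scalings.

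Among kept regions the densest had the lowest fold changes. By quartile of CPM per kb over the 4 libraries, from lowest to highest, kept regions had median log2 fold changes of −0.23, −0.21, −0.32 and −0.44. The share that fell was 37.4%, 41.6%, 53.6% and 74.0%. Scaled to kept regions the medians were 0.07, 0.10, −0.02 and −0.13, so the densest sites were lower under both scalings. The density is a mean of the same libraries, and the order is a description. The median length under peaks per kept region was 1888 and 1866.5 bp at 0 h and 1983 and 1885 bp at 9 h, so the groups were close in length.

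Gained regions were narrower than kept ones, with median widths of 1358 and 2204 bp. By quartile of width their median log2 fold change was 0.79, 0.85, 0.92 and 1.19. The width of a gained region comes from its 9 h peaks alone, so this order was favoured by the choice and is a description. Those at a gene end (910, or 66.7%) had a median of 0.97 and the 454 others 0.78. A gene end was within 1 kb of 69.9% of kept regions, of 26.0% of lost ones and of 64.7% of all regions. The median distance from a gained region to the nearest kept one was 99.3 kb, and 104 (7.62%) were within 5 kb of one, against 23 of 73 lost regions (31.5%). This distance was not computed for other regions, so no background stands beside it. On every chromosome the median of gained regions was above 0 and that of kept regions below 0 under TMM.

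Promoters of gained and kept genes were both richer in CG than those of genes without a peak. Windows of 300 bases, from 250 before to 50 after the first listed start, were available for 17274 genes. The median number of CG dinucleotides was 24 in the 842 gained promoters, 21 in 2377 kept, 15 in 21 lost and 8 in 12238 without a peak, against 14 in all. At least 10 CG were found in 87.9% of gained, 82.0% of kept and 46.9% of unbound promoters, against 57.8% of all.

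**Figure D5:**
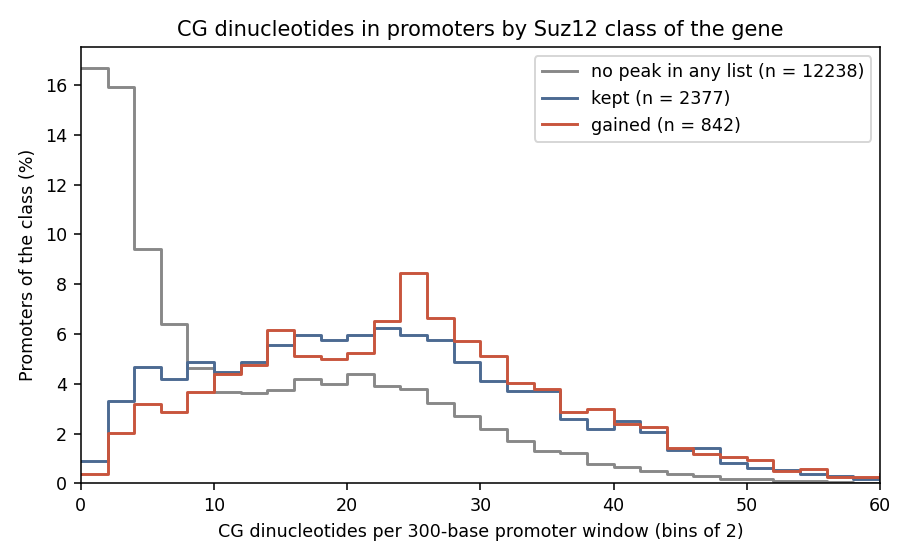
Share of promoters (vertical, %) by number of CG dinucleotides in a 300-base window (horizontal, bins of 2) for genes with a gained peak, a kept peak or none. The curves of gained and kept genes overlap over most of their range, and genes without a peak have most of their promoters below 10.

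Short motifs were counted on both strands of the same windows. GGGCGG, the core of the GC box bound by Sp and Krüppel-like factors, which itself holds a CG, was in 71.3% of gained, 66.9% of kept and 46.9% of all promoters. CCGGAA, an ETS core that also holds a CG, was in 23.8% of gained, 10.8% of kept and 19.3% of all. CACGTG, the E-box of Myc and related factors, which also holds a CG, was in 13.4%, 8.50% and 7.99%. Promoters of genes with peaks in other combinations of lists held CCGGAA in 22.3% and CACGTG in 10.2%. Those of genes without a peak held them in 20.2% and 7.20%. TATAAA, the TATA box, was in 5.46%, 7.74% and 13.4%, and CCAAT in 37.8%, 32.5% and 39.4%. These shares are a description without a test, and a match is not a bound site. Of the promoters printed above, all but that of Hoxa5 hold GGGCGG in the bases shown, and CCAAT is in those of Fgf4 and Hoxa5.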

How the data were processed

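Suz12 ChIP-seq of 4 libraries was used, triptolide 0 h and 9 h with 2 each, and 16 samples were not analysed here. The submitters' processing notes name Bowtie, a read aligner, MACS, a peak caller, and the mouse build mm10 (GRCm38), without versions. A deposited list has 1 library's peaks, with no scores, and 13 columns of raw counts per peak, per the file headers: 4 were used, 4 have names that match DRB samples and 5 match no sample. As deposited, these counts are whole numbers and were not normalized.

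Peaks were merged (1 bp), and each region was given the counts of its widest peak. Tests were made in edgeR 4.0.16 (R 4.3.3) by quasi-likelihood with TMM scaling, no filter, 2 residual degrees of freedom and Benjamini-Hochberg adjustment over 9809 regions, and in DESeq2 1.42.0 as an alternative. Tables were handled in Python 3.11.15. The code was tested on simulated data. Between replicates the chi-square divided by its degrees of freedom was 3.48 at 0 h and 2.65 at 9 h, above counting noise, and counts over regions were 2974673 to 4260812 per library. The total depth of the libraries is unknown.

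Genes were 21631 protein-coding genes of RefSeq GRCm38.p6 on the autosomes and X, bound if a peak lay within 1 kb of either end. Start sites, planned where strand is given, were known for 17274 (79.9%) and became an alternative chosen after seeing the data. A gene took the region of highest mean CPM at its ends. The members and the 26 gene lists were chosen with earlier results of these data known. The rule for named genes takes the 10 highest and 8 lowest log2 fold changes among regions that pass, lie at or above the median CPM of 47.4 and do not overlap between groups, 4 regions of highest CPM that do not pass, 3 lost genes, and up to 3 members per list and direction. Some of these 124 genes stand only in the counts, and some are not reported here. Other alternatives were 2 further scalings, a filter, the replicate number as a block, another way to sum counts, merging within 1 kb, wider peaks, lists of equal length, an overlap of 0.5, windows of 2.5 and 0.5 kb, the widest region at a gene, and leaving out each library.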

Additional observations from a re-analysis of the deposited data

How the results depend on the processing

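The number of regions that rose stayed within 1.5 times 3068 under every alternative run, from 2147 in DESeq2 to 4584 scaled to kept regions. The number that fell was 2947, and 1320 scaled to kept regions. It was 2551 in DESeq2 and 2013 scaled to the sum of counts, and filtering removed no region. Leaving out each library gave 2396 to 2890 higher and 2163 to 2881 lower regions, with the lone library of a group assumed to vary like the other group. Of 124 named genes, 111 kept direction and side of the threshold scaled to kept regions and 118 in DESeq2. Scaled to kept regions 4 changed sign: Dhh (0.055, edgeR adjusted p = 0.471) and Olfr94 (0.0305, adjusted p = 0.793), which had passed, and Pax6 (0.0882, adjusted p = 0.283) and Sfi1 (0.234, adjusted p = 0.0764), which had not. Sfi1 also changed sign scaled to the sum of counts (0.109) and without 0 h replicate 1 or 9 h replicate 2, within a range of −0.244 to 0.111 over the libraries left out.

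Same-numbered replicates had a correlation of their deviations of 0.398 over 2 pairs, too few to count as pairing. With the replicate block 3631 regions rose and 3393 fell, and the 124 named genes kept direction and side of the threshold.

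With only peaks as wide as the median or wider (1497 bp), 2548 regions were kept, 660 gained and 126 lost. With 5116 peaks in each list, 725 regions were gained and 672 lost, and 642 genes gained and 331 lost. Leaving out each list gave 1388 to 3424 gained, 78 to 332 lost and 4627 to 5574 kept regions, and 1056 to 2296 gained and 34 to 118 lost genes. With start sites in place of gene ends, an alternative chosen after seeing the data, 16 genes were lost, and fewer genes could be tested. The ratio of median peak widths, 0.898, was 1.01 without 9 h replicate 2, within a range of 0.784 to 1.01. The cause of these shifts was not tested. An overlap of 0.5, other windows and merging within 1 kb changed no count by over 1.5 times. Depth limits the precision of regions with few counts, such as Ezh2 and Setd1b.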
